A study of Mus musculus with 9 samples.

Results

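The genes described here carry fatty acids into cells and burn them. The list held 41 genes named by their role, from uptake at the cell surface to the last enzymes of β-oxidation, and the rule that lists them uses no measured difference. A gene was measured by the brightest probe set that names it alone, a probe set being the group of short probes that reports 1 transcript. Such a probe set was found for 38 of the 41 genes, of 18193 genes named in all, and all 38 were bright enough to be tested, of 13028 genes tested. No probe set names only Acsl1, Cpt1b or Ucp2, so these were not analysed here. The 3 are a long-chain acyl-CoA synthetase, the muscle form of carnitine palmitoyltransferase 1 and an uncoupling protein.

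Messenger RNA was measured with Affymetrix arrays in cardiac ventricles of male mouse fetuses at E18.5, late in gestation. Esrrg encodes the orphan nuclear receptor ERRγ, estrogen-related receptor gamma, and its 3 genotypes were wild type (+/+, here WT), heterozygous (+/-, HET) and homozygous mutant (-/-, KO), with 3 arrays each that the labels call biological replicates. The labels name no treatment beyond storage of the tissue, and the sources used here give neither the strain nor the altered part of the gene. No promoter or cell type is named for the loss, and a label of 3 ventricles per sample does not settle whether an array held 1 ventricle or a pool, so the p-values reflect only how far these arrays scatter.

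Fatty acids enter the heart muscle cell through transport proteins, are bound by a cytosolic carrier, tied to coenzyme A and passed into mitochondria as carnitine esters. There the β-oxidation spiral shortens them step by step, and electrons from its acyl-CoA dehydrogenases reach the respiratory chain through the electron transfer flavoprotein. The fetal heart is known to rely mostly on glucose and lactate and to turn to fatty acids around birth, and ERRγ is known as a regulator of genes that supply the heart with energy.

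The arrays bore out the Esrrg labels. The brightest Esrrg probe set gave WT signals of 206 to 281, HET signals of 162 to 164 and KO signals of 39.3 to 58.3 (KO minus WT -1.88 ± 0.19 on the log2 scale, limma, adjusted p = 0.00018). All 10 cardiomyocyte markers listed were bright enough to be tested. Median signals lay between 36.6 and 45.9, and with 3 arrays a genotype the precision is limited by their number. In the log2 ratio of the bacterial spike-in controls thr and dap, HET replicate 1 and all WT arrays read -0.67 to -0.43, and the 5 other arrays, all KO arrays with HET replicates 2 and 3, read -1.09 to -0.89. These 2 sets are called the first and second array batch, inferred from control probe sets alone. The 3' minus 5' difference of Gapdh, which moves with RNA quality, read -0.13 to -0.067 in the first batch and -0.21 to -0.16 in the second. Batch and genotype can be separated only through HET replicate 1: a model that blocks on batch adds the KO to HET difference of the second batch to the difference of that lone HET array from WT in the first.

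Between KO and WT, 6 fatty acid genes fell, of which Hadha, Hadh, Acaa2 and Eci1 encode mitochondrial enzymes. The others were Fabp3 and Pipox, and no listed gene rose (limma on log2(signal + 16), Benjamini-Hochberg adjustment over 13028 genes, called at an adjusted p under 0.05). Of all genes tested, 0.883% were called lower and 0.737% higher in KO, 1.62% together, against 6 of the 38 fatty acid genes. The KO means of these 6 genes were 75.5% to 82.3% of WT, except for the dim gene Pipox at 34.4%. The difference was below 0 for 26 of the 38 genes, with a median of -0.17 (all genes, -0.0092). At an unadjusted p under 0.05 there were 19 of 38, or 50.0%, against 17.2% of all genes. Every KO array lay under every WT array for 18 of the 38 (all genes, 13.9%) and over every WT array for 5 (all genes, 11.1%), which were Slc27a1, Fabp5, Acsl4, Acadsb and Acot1. With the array batch as a block, 0 of the 38 were called (all genes, 0.00768%), the median was -0.066 (all genes, 0.015) and 24 of 38 lay below 0. The medians of the uptake, activation and spiral genes were -0.019, 0.045 and -0.24, but -0.095, -0.082 and -0.083 under that block, so the distance between these roles was not kept. All 6 called genes kept a difference below 0 with the block, at adjusted p from 0.782 to 0.946. The calls also rest on every WT and KO array: 1 gene, Eci1, was called without WT replicate 1 or KO replicate 3, and 0 without WT replicate 2, WT replicate 3, KO replicate 1 or KO replicate 2, where fewer arrays enter the fit.

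**Figure D1:**
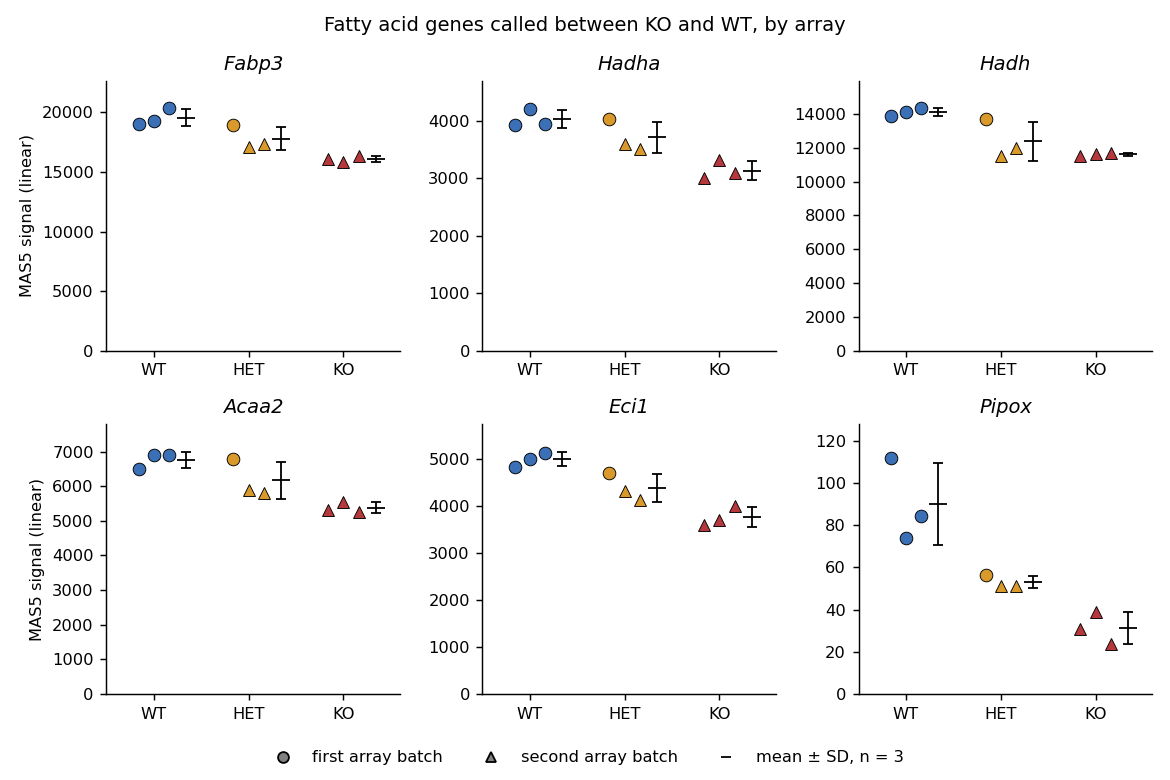
Signal of the 6 fatty acid genes called between KO and WT on each array, on a linear axis from 0, with circles for the first array batch, triangles for the second, and a bar for the mean ± SD of 3 arrays. KO arrays lie under WT arrays in every panel, and HET replicate 1, the only HET circle, lies above the other 2 HET arrays in all 6 (for Hadh 13681 against 11500 and 11955).

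Among the 6 uptake genes, Fabp3 fell and the other 5 were not called, 3 of the 6 differences being below 0 with a median of -0.019. With the batch as a block 5 of 6 lay below 0 (median -0.095), and within the second batch KO lay below HET for all 6 (median -0.075). Over all genes KO lay below HET within that batch for 6467 of 13028 (median 0.0015). Fabp3, the fatty acid-binding protein of heart muscle, read 19022, 19312 and 20352 on the WT arrays, 18952, 17121 and 17364 on the HET arrays, and 16070, 15829 and 16329 on the KO arrays. The genotypes did not overlap and lay in the order of the number of intact Esrrg copies, although HET replicate 1 was only just under the lowest WT array. The share of all genes parted in this way is not given here, for Fabp3 or for genes below. WT and KO also differ in batch, so such an order does not single out genotype. The means were 19560 ± 699 in WT, 17810 ± 994 in HET and 16080 ± 250 in KO (SD, n = 3 each), and KO minus WT was -0.28 ± 0.06 (SE; limma, adjusted p = 0.0291). The batch block gave -0.15 ± 0.08, and KO lay -0.10 from HET among second-batch arrays. A second, much dimmer Fabp3 probe set gave 0.089 ± 0.23.

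Slc27a1, the fatty acid transport protein FATP1, read 56.5, 49.1 and 79.9 in the WT ventricles, 146, 101 and 124 in the HET ventricles, and 104, 105 and 119 in the KO ventricles. All 6 HET and KO arrays lay above the 3 WT arrays, and HET replicate 1, of the first batch, was the highest. In KO the difference from WT was 0.70 ± 0.21 (limma, adjusted p = 0.103; 1.04 ± 0.38 under the batch block) and in HET it was 0.85 ± 0.21 (limma, adjusted p = 0.293). The second Slc27a1 probe set went the other way, at -0.53 ± 0.33, so the probe sets of this gene disagreed. Fabp5, a fatty acid-binding protein made in many tissues, including endothelium, read 5901, 6413 and 5920 across WT, 5784, 8149 and 6854 across HET, and 7016, 7184 and 7432 across KO. Its KO arrays all lay above WT, while HET replicate 1 lay below WT and HET replicate 2 was the highest of the 9. The KO to WT difference was 0.25 ± 0.09 (limma, adjusted p = 0.179) and turned to -0.12 ± 0.12 with the batch as a block.

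The remaining uptake genes were not called. KO minus WT was -0.12 ± 0.07 (-0.24 under the batch block) for Cd36, the main fatty acid translocase of heart and capillary endothelium, and -0.070 ± 0.06 for Fabp4, the binding protein of adipocytes and endothelium. It was 0.031 ± 0.06 for Lpl, lipoprotein lipase, -0.039 under the batch block, whose dimmer second probe set gave -0.28 ± 0.07 (limma over 23540 probe sets, adjusted p = 0.0714). The dimmer probe sets of Cd36 gave 0.26 ± 0.14 and -0.27 ± 0.17. Those of Fabp4 gave 0.56 ± 0.18, -0.18 ± 0.20 and 0.23 ± 0.28. The probe sets of each of these genes thus disagreed in sign. Of 10 endothelial markers 1, Kdr, was called lower in KO, and the list's median was -0.062, with summed signals of 8835 to 9004 in WT, 8139 to 9306 in HET and 7976 to 8790 in KO. The 5 adipocyte markers on the array, Adipoq among them, were all under the filter on dim genes, with summed signals of 45.7 to 93.1 in WT and 77.1 to 115 in KO. The part of endothelial cells in the uptake genes was not tested.

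**Figure D2:**
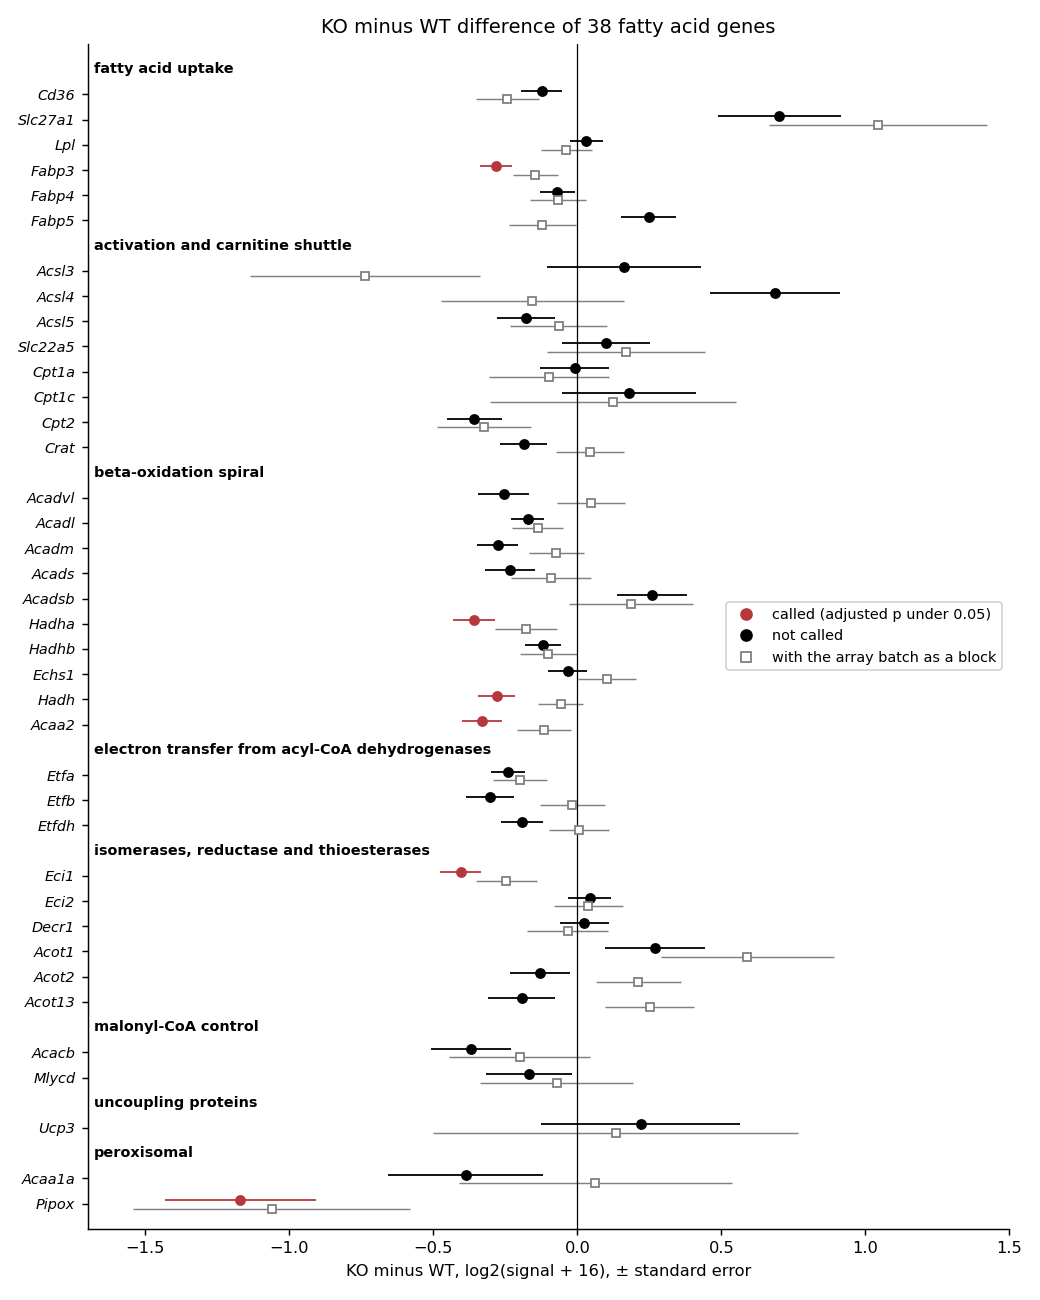
KO minus WT difference on the log2(signal + 16) scale, ± SE, for the 38 genes by role, with called genes in red and open squares for the fit with the array batch as a block. Spiral and electron transfer genes cluster to the left of 0 at -0.12 to -0.36, except Acadsb and Echs1, and most of their open squares lie closer to 0.

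None of the 8 tested genes of fatty acid activation and the carnitine shuttle was called, and the list's median was 0.045, with 4 differences on each side of 0. The median turned to -0.082 with the batch as a block, with 5 of 8 below 0, and KO lay below HET for all 8 within the second batch, at a median of -0.11 (all genes, 6467 of 13028 and 0.0015). Cpt2, the inner-membrane carnitine palmitoyltransferase that hands acyl groups back to coenzyme A, had the smallest p. It read 1097, 988 and 1013 on the WT arrays, 890, 814 and 927 on the HET arrays, and 850, 824 and 734 on the KO arrays, so that all HET and KO arrays lay under all WT arrays. This put KO minus WT at -0.36 ± 0.10 (limma, adjusted p = 0.0708), against -0.32 ± 0.16 under the batch block. Unlike most genes of the spiral, HET replicate 1 was here as low as the other HET arrays. A second, much dimmer Cpt2 probe set went the other way, at 0.34 ± 0.31.

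Acsl4, the acyl-CoA synthetase that prefers arachidonic acid, read 111, 116 and 74.0 in the WT ventricles, 141, 273 and 258 in the HET ventricles, and 164, 188 and 155 in the KO ventricles. Its HET arrays reached higher than its KO arrays, and both groups lay above WT. The KO minus WT difference came to 0.69 ± 0.23 and HET minus WT 1.01 ± 0.23 (limma, adjusted p = 0.125 and 0.285), while the batch block gave -0.16 ± 0.32 for KO minus WT. The other Acsl4 probe sets, not much dimmer, gave smaller KO minus WT differences of 0.17 ± 0.21 and 0.17 ± 0.20. Crat, the carnitine acetyltransferase that buffers acetyl-CoA, read 2581, 2494 and 2543 across WT, 2637, 2324 and 2172 across HET, and 2385, 2163 and 2146 across KO. HET replicate 1 was the highest Crat array of all, and the other HET arrays lay among the KO arrays. KO minus WT was -0.19 ± 0.08 (limma, adjusted p = 0.257), against 0.043 ± 0.12 under the batch block. The dimmer Crat probe sets gave 0.34 ± 0.18 and -0.0091 ± 0.22.

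Cpt1a, the liver-type isoform of the rate-setting outer-membrane enzyme, gave -0.0089 ± 0.12. Cpt1c, a brain-enriched relative, gave 0.18 ± 0.23. The carnitine transporter Slc22a5 gave 0.098 ± 0.15, and the acyl-CoA synthetases Acsl3 and Acsl5 gave 0.16 ± 0.27 and -0.18 ± 0.10. The batch block turned Acsl3 to -0.74 ± 0.40 and gave -0.065 for Acsl5, -0.099 for Cpt1a, 0.12 for Cpt1c and 0.17 for Slc22a5. Acsl3 was the least even of these genes, with a HET second minus first batch difference of 0.90.

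The β-oxidation spiral held 3 of the 6 called genes. Of its 10 enzymes, Hadha, Hadh and Acaa2 fell (all genes, 0.883% called lower). Differences lay below 0 for 9 of the 10 (all genes, 51.6%), at a median of -0.24 (all genes, -0.0092). An unadjusted p under 0.05 was reached by 7 (all genes, 17.2%). Blocking on array batch left 7 of the 10 below 0 and moved their median to -0.083 (all genes, 0.015). The genotype means fell in the order WT, HET, KO for 8 of 10 enzymes (all genes, 23.4%). With WT in the first batch, KO in the second and HET in both, this order cannot tell genotype and batch apart. Hadha and Hadhb encode the α and β subunits of the mitochondrial trifunctional protein, which carries out the last 3 steps of the spiral on long chains, and the genes lie head to head on chromosome 5 with 272 bases between their starts. The stretch between them that the RefSeq windows of both genes share (GRCm38.p6, chr5:30155003-30155230, + strand) is shown because it lies before both genes, whose values differ below. It holds 15 CG pairs and is 57.0% G and C.

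Hadha and Hadhb: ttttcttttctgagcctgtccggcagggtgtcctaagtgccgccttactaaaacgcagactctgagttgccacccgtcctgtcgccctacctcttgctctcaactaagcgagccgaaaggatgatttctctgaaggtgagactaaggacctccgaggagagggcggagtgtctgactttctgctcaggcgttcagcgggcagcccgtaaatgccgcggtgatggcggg

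No AAGGTCA, the core sequence that ERR proteins bind, was found in these letters on either strand. Hadha read 3931, 4204 and 3941 on the WT arrays, 4027, 3592 and 3515 on the HET arrays, and 3009, 3311 and 3087 on the KO arrays. All KO arrays lay under all HET arrays, and HET replicate 1 lay among the WT arrays. The means were 4025 ± 155, 3711 ± 276 and 3135 ± 157 (SD, n = 3), so KO was at 77.9% of WT, and KO minus WT was -0.36 ± 0.07 (limma, adjusted p = 0.032). The batch block gave -0.18 ± 0.11, all of it from KO minus HET within the second batch (-0.18), since HET replicate 1 differed from WT by 0.0015. Hadhb gave -0.12 ± 0.06 (limma, adjusted p = 0.348), with its KO arrays under its WT arrays, and its dimmer probe sets gave 0.49 ± 0.18 and 0.35 ± 0.35. Whether Hadha and Hadhb differed from each other was not tested.

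Hadh, which oxidises the hydroxyacyl-CoA of medium and short chains, read 13863, 14104 and 14336 in the WT ventricles, 13681, 11500 and 11955 in the HET ventricles, and 11495, 11636 and 11693 in the KO ventricles. The arrays of the second batch lay together whatever the genotype, with HET replicate 2 inside the KO range, and HET replicate 1 lay next to WT. The means were 14100 ± 236, 12380 ± 1151 and 11610 ± 102 (SD, n = 3), and KO minus WT was -0.28 ± 0.06 before and -0.058 ± 0.08 after the batch block (limma, adjusted p = 0.0442 and 0.946). Its probe set is of the type marked x by the array maker, whose probes can bind other transcripts. The 2 other Hadh probe sets gave -0.16 ± 0.08 and 0.36 ± 0.21, neither of them called.

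Acaa2, the mitochondrial 3-ketoacyl-CoA thiolase that releases acetyl-CoA, read 6502, 6900 and 6892 across WT, 6796, 5891 and 5811 across HET, and 5308, 5552 and 5260 across KO. KO arrays were the lowest, HET replicates 2 and 3 lay between, and HET replicate 1 fell inside the WT range. The means were 6765 ± 228, 6166 ± 547 and 5373 ± 157 (SD, n = 3), and KO minus WT was -0.33 ± 0.07 (limma, adjusted p = 0.0339), or -0.12 ± 0.09 with the batch as a block. Its 2 other probe sets also lay below 0, at -0.45 ± 0.08 and -0.16 ± 0.07 (limma over 23540 probe sets, adjusted p = 0.0332 and 0.259). Acaa2 was the 1 gene of the list with more than 1 probe set called.

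The acyl-CoA dehydrogenases, which start each turn of the spiral on chains of different length, were not called. The KO to WT difference was -0.26 ± 0.09 for Acadvl (very long chains), -0.17 ± 0.06 for Acadl (long), -0.28 ± 0.07 for Acadm (medium) and -0.23 ± 0.09 for Acads (short), at adjusted p of 0.138, 0.13, 0.0582 and 0.171 (limma). For each of these 4 genes every KO array lay under every WT array (all genes, 13.9%). With the batch as a block the 4 values were 0.046, -0.14, -0.073 and -0.092. Acadsb, which acts on short branched chains from isoleucine, gave 0.26 ± 0.12, and the hydratase Echs1 gave -0.034 ± 0.07, or 0.18 and 0.10 under the batch block. For Acadsb all KO arrays lay above all WT arrays (all genes, 11.1%). The only Acadsb probe set is, like that of Hadh, of the type marked x, whose probes can bind other transcripts.

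Acadm was one of 2 listed genes whose promoter window held AAGGTCA, beside Acacb, and the stretch before its start is shown for that match (GRCm38.p6, chr3:153944644-153944893, printed along the - strand, which is that of the gene). The capitals mark TGACCTT, the same letters read on the other strand, 249 to 243 bases before the start.

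Acadm: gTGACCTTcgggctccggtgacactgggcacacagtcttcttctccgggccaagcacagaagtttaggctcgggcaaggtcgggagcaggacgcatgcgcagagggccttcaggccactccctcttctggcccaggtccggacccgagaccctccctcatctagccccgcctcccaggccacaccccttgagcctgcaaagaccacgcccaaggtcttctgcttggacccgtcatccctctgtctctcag

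RefSeq windows from 250 bases before to 50 after the start were found for 31 of the 38 tested genes. AAGGTCA on either strand stood in 4.72% of all 32851 windows and in those of 2 of the 31 genes. The longer ERR half-sites TCAAGGTCA and TNAAGGTCA, both of which contain AAGGTCA, stood in 0.423% and 1.28% of all windows and in none of the 31 genes. The direct repeat of AGGTCA with 1 base between, DR1, which PPAR binds with RXR and which can overlap the core, stood in 0.0396% and in none of the 31. A match is a description of letters, and these short windows leave out distant elements and introns.

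All 3 electron transfer genes had every KO array under every WT array (all genes, 13.9%), and none was called. Their median was -0.24, and -0.018 with the batch as a block. Etfa, the α subunit of the electron transfer flavoprotein, read 5586, 5844 and 5894 on the WT arrays, 5242, 5039 and 5148 on the HET arrays, and 4816, 4881 and 4953 on the KO arrays. The genotypes did not overlap and lay in the order of intact copies (share of all genes not given here), with all HET arrays clear of WT. KO minus WT was -0.24 ± 0.06 (limma, adjusted p = 0.057), against -0.20 ± 0.09 under the batch block. Etfb, the β subunit, read 6437, 7226 and 7286 in the WT ventricles, 6968, 5473 and 5957 in the HET ventricles, and 5703, 5915 and 5330 in the KO ventricles. Here HET replicate 1 lay among the WT arrays and the other HET arrays near the KO arrays, unlike Etfa. Its KO minus WT difference was -0.30 ± 0.08 (limma, adjusted p = 0.0791) but -0.018 ± 0.11 with the block.

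Etfdh, the membrane enzyme that passes these electrons to ubiquinone, read 3878, 4230 and 4215 across WT, 4059, 3521 and 3551 across HET, and 3485, 3609 and 3668 across KO. Its arrays also parted by batch, since the HET arrays of the second batch lay inside the KO range. KO minus WT was -0.19 ± 0.07 (limma, adjusted p = 0.178), against 0.0044 ± 0.10 under the batch block.

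Summed up as a median, the spiral enzymes parted in the same way, although not each of them did. HET second minus first batch was -0.018 for Hadhb, -0.035 for Acadl and 0.074 for Acadsb. The median of the 10 enzymes, relative to the WT mean, was -0.039, 0.0076 and 0.026 on the WT arrays, 0.0015, -0.19 and -0.16 on the HET arrays, and -0.23, -0.28 and -0.21 on the KO arrays. The medians of the 3 electron transfer genes were -0.016, -0.22 and -0.21 on the HET arrays. HET replicates 2 and 3 thus lay near KO and HET replicate 1 near WT, in the pattern of the array batches. HET second minus first batch was -0.16 for the spiral, with 9 of 10 enzymes below 0, and KO minus HET within the second batch was -0.035, with 8 of 10 below 0 and 0 called. Over all genes, HET second minus first batch had a median of -0.046, and KO minus HET within the second batch one of 0.0015. Of 10 cardiomyocyte markers 8 were lower in KO (all genes, 51.6%), none called, while Myh6 (0.067) and Ryr2 (0.044) were higher. The median of the 10 was -0.15, and 0.042 with the batch as a block, where that of the spiral was -0.083. Summed signals of these markers were 186400 to 200100 in WT, 168200 to 190300 in HET and 166700 to 183300 in KO. Markers of several other cell classes lay mostly above 0. Of 10 fibroblast and epicardial markers 9 were higher in KO, Lum called, with a median of 0.18 (0.22 with the block) and summed signals of 34650 to 39500 in WT, 34720 to 39880 in HET and 39100 to 40760 in KO. Of 6 smooth muscle and pericyte markers 4 were higher and none called (median 0.26, and 0.29 with the block), and of 5 erythroid markers tested 4 were higher, Hbb-b2 called (median 0.26, and 0.49 with the block). Higher without a call were 5 of 8 macrophage markers (median 0.095, and 0.26 with the block), 3 of 5 skeletal muscle markers tested (0.061 and 0.46) and both liver markers tested (0.36 and 0.59). Of 5 atrial markers 3 were lower, with Nppa called higher (median -0.19, and 0.16 with the block). The part of any of these cells in the lower spiral values was not tested, and in whole ventricle fewer cardiomyocytes and less RNA per cardiomyocyte cannot be told apart.

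**Figure D3:**
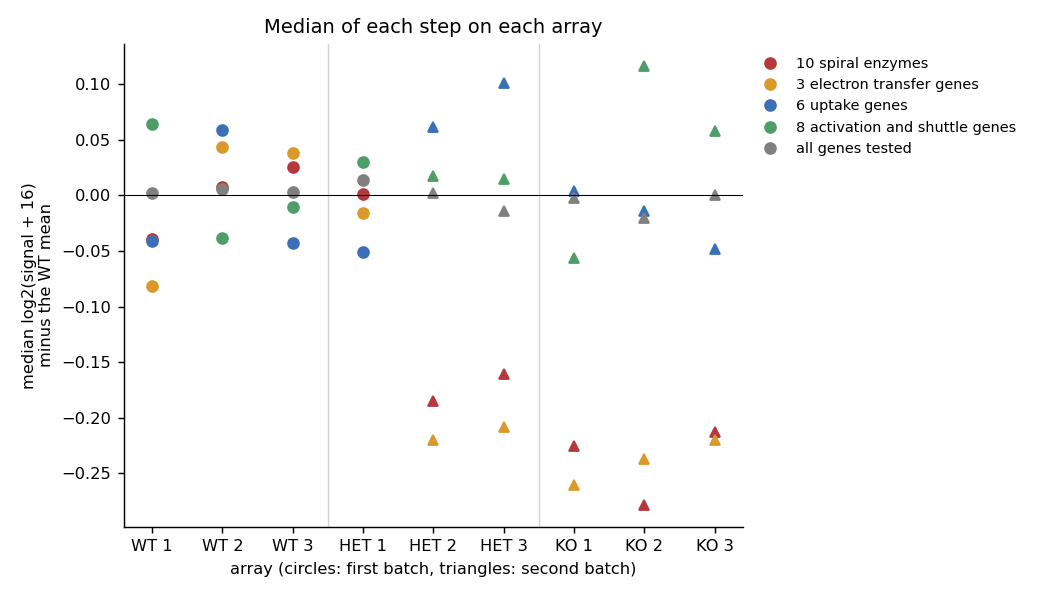
Median log2(signal + 16) minus the WT mean on each of the 9 arrays for 4 groups of fatty acid genes and all genes tested, with circles for the first array batch and triangles for the second. The spiral and electron transfer medians lie between -0.16 and -0.28 on the 5 triangles and between -0.081 and 0.043 on the 4 circles, while all genes stay near 0.

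Of the 6 isomerases, reductase and thioesterases, Eci1 fell and the other 5 were not called. The median of the 6 was -0.053, and 0.12 under the batch block. Eci1, the mitochondrial enoyl-CoA isomerase that moves the double bond of unsaturated fatty acids into line for the spiral, had the smallest adjusted p of the list. The 250 bases before its start (GRCm38.p6, chr17:24426433-24426682, + strand) are shown for that reason, and hold no AAGGTCA on either strand.

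Eci1: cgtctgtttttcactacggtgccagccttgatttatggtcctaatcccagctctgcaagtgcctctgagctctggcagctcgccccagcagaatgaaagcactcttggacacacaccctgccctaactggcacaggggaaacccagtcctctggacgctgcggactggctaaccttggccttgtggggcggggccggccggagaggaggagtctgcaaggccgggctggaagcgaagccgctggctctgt

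Eci1 read 4834, 4996 and 5131 on the WT arrays, 4703, 4306 and 4119 on the HET arrays, and 3593, 3698 and 4000 on the KO arrays. The genotypes did not overlap and lay in the order of intact copies (share of all genes not given here). Both HET arrays of the second batch were above all KO arrays. The means were 4987 ± 149, 4376 ± 298 and 3764 ± 212 (SD, n = 3), which puts HET at 87.8% and KO at 75.5% of WT. In KO the difference from WT was -0.41 ± 0.07 (limma, adjusted p = 0.0225), against -0.25 ± 0.11 under the batch block (adjusted p = 0.782). Within the second batch KO minus HET was -0.16, the same size as HET second minus first batch (-0.16).

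Acot13, a thioesterase that frees fatty acids from coenzyme A, read 5117, 4636 and 5405 in the WT ventricles, 5829, 4266 and 4293 in the HET ventricles, and 4031, 4092 and 5183 in the KO ventricles, so KO and WT overlapped. Its difference was -0.19 ± 0.12 (limma, adjusted p = 0.425), against 0.25 ± 0.15 under the batch block. Acot1, a cytosolic thioesterase with a near-identical mitochondrial copy in Acot2, read 128, 136 and 122 across WT, 198, 184 and 131 across HET, and 163, 169 and 144 across KO. All KO arrays lay above all WT arrays, at 0.27 ± 0.17 (limma, adjusted p = 0.46). Acot2 gave -0.13 ± 0.10 (0.38 ± 0.23 on a dimmer probe set), and the batch block turned the first value to 0.21 while Acot1 came to 0.59. Signals of the pair are uncertain because probes may bind both. Eci2, a peroxisomal and mitochondrial isomerase, and Decr1, the dienoyl-CoA reductase for polyunsaturated chains, gave 0.042 ± 0.07 and 0.024 ± 0.08, or 0.037 and -0.034 under the batch block.

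Malonyl-CoA, which blocks carnitine palmitoyltransferase 1, is made near mitochondria by the product of Acacb and removed by that of Mlycd. Acacb read 559, 421 and 469 on the WT arrays, 418, 385 and 356 on the HET arrays, and 322, 348 and 443 on the KO arrays. Its HET arrays all lay under WT, but KO replicate 3 did not, and KO minus WT was -0.37 ± 0.14 (limma, adjusted p = 0.178), against -0.20 under the batch block. Mlycd read 223, 231 and 185 in the WT ventricles, 233, 217 and 218 in the HET ventricles, and 160, 202 and 202 in the KO ventricles, where only WT replicate 3 reached down among the KO arrays, and gave -0.17 ± 0.15 (adjusted p = 0.614), against -0.073 under the block. Ucp3, the uncoupling protein of muscle mitochondria, was dim at 32.9, 42.8 and 16.7 across WT, 29.4, 40.2 and 25.5 across HET, and 42.5, 41.3 and 28.3 across KO. Of its 9 values 1 lay under the filter level of 21.7, and KO minus WT was 0.22 ± 0.34 (limma, adjusted p = 0.803), against 0.13 under the block.

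Among the peroxisomal genes, Pipox fell furthest of all 38. It encodes an oxidase of pipecolic acid and sarcosine, so its substrates come from amino acids rather than fatty acids. Pipox read 112, 74.1 and 84.4 on the WT arrays, 56.5, 51.2 and 51.3 on the HET arrays, and 31.0, 38.6 and 23.5 on the KO arrays. The 3 genotypes did not overlap, and HET replicate 1 lay with the other HET arrays instead of with WT. The means were 90.1 ± 19.5, 53.0 ± 3.04 and 31.0 ± 7.58 (SD, n = 3), or 58.9% of WT in HET and 34.4% in KO. The KO minus WT difference came to -1.17 ± 0.26 (limma, adjusted p = 0.0396), a scale on which such dim signals are understated. The batch block gave -1.06 ± 0.48 (adjusted p = 0.782), made up of -0.53 for KO minus HET in the second batch and -0.53 for HET minus WT in the first. HET second minus first batch was -0.11. Acaa1a, the peroxisomal thiolase, read 108, 158 and 212 in the WT ventricles, 135, 60 and 144 in the HET ventricles, and 113, 109 and 120 in the KO ventricles. WT covered the whole KO range, the difference was -0.39 ± 0.27 (limma, adjusted p = 0.503) and turned to 0.063 under the batch block, and its probes may bind the close copy Acaa1b.

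**Figure D4:**
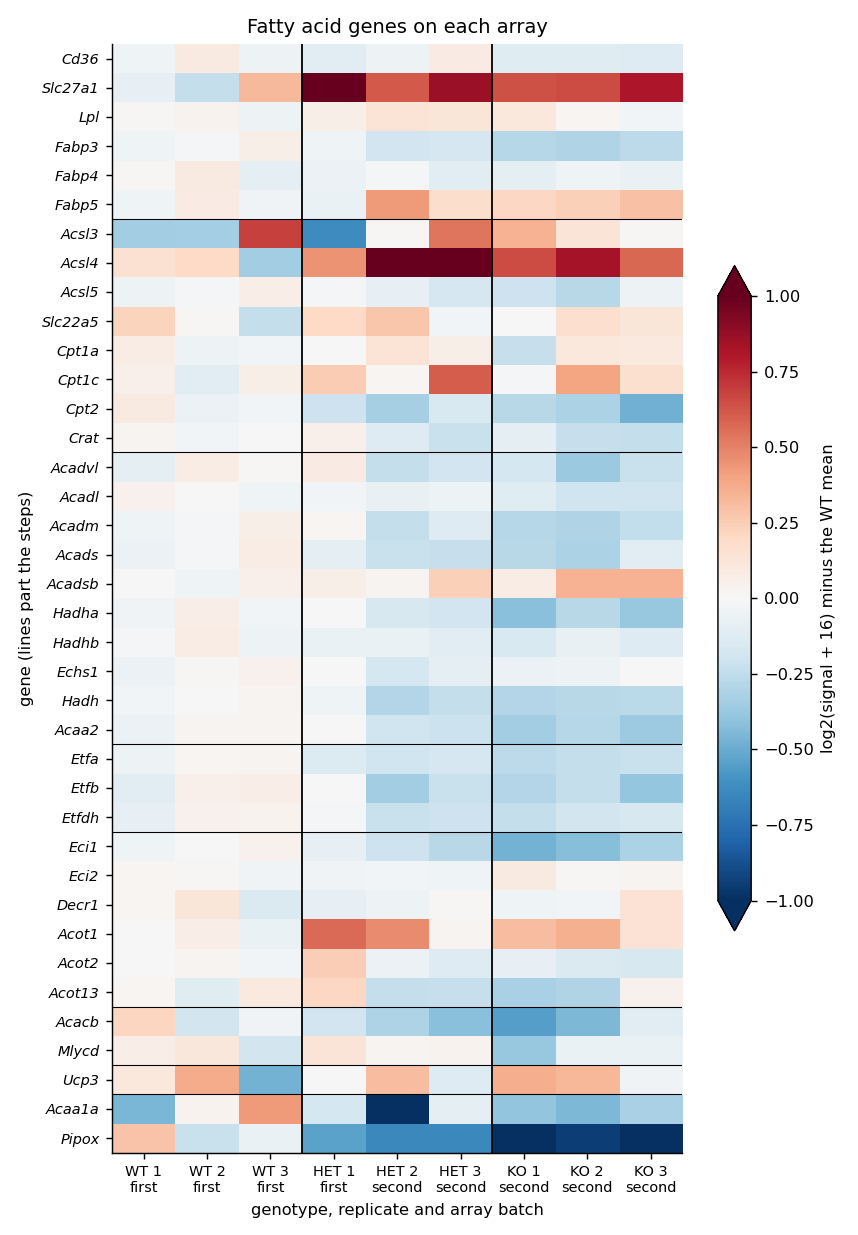
Each of the 38 genes (rows, in order of role) on each of the 9 arrays (columns, with the array batch under the name), as log2(signal + 16) minus the gene's WT mean, blue for lower and red for higher, with colours ending at 1 on either side. The rows of the spiral and electron transfer are mostly blue from HET replicate 2 onward, Acadsb and Echs1 aside, while Pipox is blue on all 6 HET and KO arrays.

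Heterozygous ventricles gave no call. For HET against WT 0 of 38 genes passed (limma, 0 of 13028 genes, 0%), with 10 of 38 at an unadjusted p under 0.05, or 26.3%, against 11.5% of all genes. The difference lay below 0 for 26 of 38, with a median of -0.084. The highest was Acsl4 at 1.01 and the lowest Pipox at -0.61 ± 0.26 (limma, adjusted p = 0.4). Genotype means fell from WT to HET to KO for 21 of 38 genes, or 55.3% (all genes, 23.4%), and rose for 3 (all genes, 20.8%). Since the HET arrays span both batches, genotype and batch cannot be told apart by this order. The HET result turned on HET replicate 1. Without it, 4.41% of all genes and 6 of the 38 were called. Of these Fabp3 (-0.18), Hadh (-0.27), Etfb (-0.29) and Eci1 (-0.24) were lower and Fabp5 (0.30) and Acsl4 (1.29) higher in HET. Those 2 remaining HET arrays are both of the second batch and all WT arrays of the first, so genotype and batch cannot be told apart there. Without HET replicate 1, KO against WT called 14 of 38, 12 lower with Fabp5 and Acsl4 higher, against 6.45% of all genes.

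Homozygous against heterozygous ventricles gave no call among the listed genes either. For KO against HET 0 of 38 were called (limma, 0.0154% of all genes), at adjusted p of 0.989 or more, with 7 of 38 at an unadjusted p under 0.05, or 18.4%, against 4.81% of all genes. The difference was below 0 for 30 of 38, with a median of -0.088. Every KO array lay under every HET array for 10 of the 38 (all genes, 747 of 13028). The reverse held for 1 (all genes, 620 of 13028). Hadha (-0.24 ± 0.07) and Eci1 (-0.22 ± 0.07) had the smallest unadjusted p. Within the second batch alone 29 of 38 lay below 0 (all genes, 6467 of 13028), with a median of -0.038 (all genes, 0.0015) and 0 called. HET replicate 1 minus WT in the first batch had a median of -0.0068 (all genes, 0.014). HET second minus first batch had a median of -0.11 over the 38 genes, larger than either.

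Other genes of fatty acid metabolism, 87 in 7 lists chosen by role, gave 79 tested genes, of which 51 (64.6%) lay below 0 and 3 were called between KO and WT, beside 51.6% and 1.62% of all genes. Their median was -0.11 (all genes, -0.0092), and 20 (25.3%) had an unadjusted p under 0.05 (all genes, 17.2%). The batch block gave a median of -0.029 and 42 of 79 lay below 0. Acss1, which makes acetyl-CoA from acetate in mitochondria, rose from 209, 140 and 185 in WT over 284, 241 and 236 in HET to 332, 294 and 362 in KO. Its genotypes did not overlap, HET replicate 1 was the highest HET array, and the difference was 0.84 ± 0.16 (limma, adjusted p = 0.0262), or 1.08 ± 0.27 with the batch as a block. Dbi, the acyl-CoA-binding protein, read 4120, 3158 and 4227 on the WT arrays, 4129, 5782 and 5660 on the HET arrays, and 5499, 5531 and 5371 on the KO arrays. HET replicate 1 lay inside the WT range, and the other HET arrays lay above every KO array. It rose by 0.52 ± 0.12 (limma, adjusted p = 0.0445) but gave 0.053 ± 0.15 with the block. Plin3, a lipid droplet coat protein, fell from 880, 986 and 972 in WT over 850, 773 and 799 in HET to 721, 663 and 666 in KO, at -0.46 ± 0.09 (limma, adjusted p = 0.0317), against -0.35 ± 0.15 under the batch block.

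By list, 7 of 10 genes of transport and carnitine supply lay below 0 (median -0.16), with Gpihbp1, the capillary anchor of lipoprotein lipase, at -0.24 ± 0.11. Of 16 other mitochondrial oxidation enzymes 12 lay below 0 (median -0.13), with Mcee, an epimerase of propionate breakdown, at -0.41 ± 0.11. Peroxisomal oxidation was divided, 7 of 13 below 0 (median -0.086), with the carrier and thiolase gene Scp2 at -0.26 ± 0.08 and the import receptor Pex7 at -0.32 ± 0.11. The 3 ketone body genes had a median of -0.0062, with Bdh1 at -0.26 ± 0.15 and Acat1 at -0.0062. Lipid droplet and triglyceride genes had 10 of 15 below 0 (median -0.12), with Agpat3, an enzyme of phosphatidic acid synthesis, at -0.32 ± 0.10. Fatty acid synthesis had 4 of 11 below 0 (median 0.070), where the elongase Elovl5 gave -0.33 ± 0.10 and the desaturase Scd2 0.28 ± 0.09. Of 12 genes of PPAR control and its targets 9 lay below 0 (median -0.17), with Lpin1, also in the droplet list, at 0.65 ± 0.22 and the pyruvate dehydrogenase kinase Pdk2 at -0.22 ± 0.09. The batch block turned the medians of transport (0.051), peroxisomal oxidation (0.068) and lipid droplets (0.13) above 0 and that of synthesis (-0.029) below, so their directions are not settled. It gave -0.0023 for the other mitochondrial enzymes, -0.15 for the ketone body genes and -0.21 for PPAR control. Of the genes just named it turned Gpihbp1 (0.061), Mcee (0.090) and Scd2 (-0.018), and brought Scp2 to -0.024, Pex7 to -0.18, Bdh1 to -0.15, Elovl5 to -0.14 and Pdk2 to -0.37. Under it Agpat3 was at -0.33, Lpin1 at 0.45 and Acat1 at -0.030. None of the genes in these lists other than Acss1, Dbi and Plin3 was called. Without WT replicate 2, WT replicate 3 or any 1 KO array, 0 of the 79 were called, and 9 without HET replicate 1 (all genes, 6.45%).

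**Figure D5:**
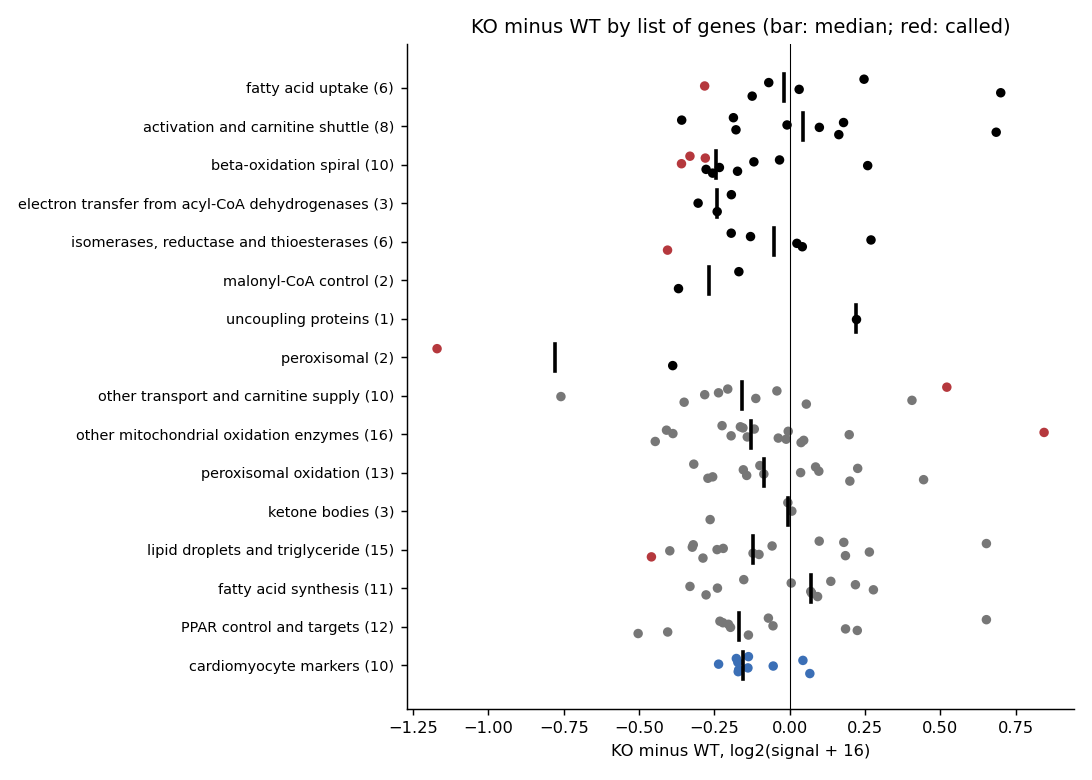
KO minus WT difference on the log2(signal + 16) scale for each gene of the 8 roles (black), the 7 lists of other fatty acid genes (grey) and 10 cardiomyocyte markers (blue), with red for called genes and a bar at each median. The medians of the spiral and electron transfer lie at -0.24, against -0.15 for the cardiomyocyte markers and 0.045 for activation and the carnitine shuttle.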

How the data were processed

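Each of the 9 arrays gave a MAS5 signal per probe set, a linear intensity deposited by the authors (MAS5 per the submitters' processing notes, its version not given in the sources used here). Every deposited column had a mean of 200 without its top and bottom 2%, so a single trimmed mean was set for all arrays with no further normalization, which leaves background differences that weigh most on dim genes. Detection calls were not used here.

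Names came from the platform annotation, updated by gene ID through RefSeq (GRCm38.p6). Of 45037 probe sets, 34945 name 1 gene, 932 several and 9160 none. The brightest probe set of each gene was taken as log2(signal + 16), and 5165 genes under the 40th percentile of probe sets (5.24 on that scale) were left out. limma 3.58.1 in R 4.3.3 fitted 1 mean per genotype over all 9 arrays (lmFit, eBayes with an intensity trend, two-sided, Benjamini-Hochberg over 13028 genes). The fit was tested on simulated data that held no batch difference, so that test does not bear on calls where batch and genotype overlap. The array batch was read at the widest gap of the thr to dap ratio, with earlier results of these data known. The members, lists, tests and alternatives were likewise chosen with earlier results of these data known. Values per array are given for called genes and the 3 smallest p of each role, and, of other lists, for called genes, while their 2 genes of smallest p are given by their difference. Alternatives were quantile normalization, a shift to 1 median, pseudocounts of 1 and 64, no filter or one at the 60th percentile, probe sets averaged per gene or taken alone, no trend, array weights, only the 6 arrays compared, replicate and batch blocks, and each array left out. A planned comparison of Cpt1b with Cpt1a was not made, as no probe set names Cpt1b alone. Figures were drawn with matplotlib 3.10.9.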

Additional observations from a re-analysis of the deposited data

How the results depend on the processing

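The 6 called fatty acid genes stayed below 0 in every alternative run, but their calls did not all hold. Between KO and WT, 0 of the 38 were called with a shift of each array to 1 median, probe sets averaged per gene, no intensity trend or the array batch as a block. With no filter 2 were called, Hadha and Eci1, with array weights 11, and with only the 6 arrays compared 12. The shares of all genes called in these 3 settings are not given here, so counts under them do not set any list apart. Leaving out 1 array gave 0 to 14 calls: 0 without WT replicate 2, WT replicate 3, KO replicate 1 or KO replicate 2, 1 (Eci1) without WT replicate 1 or KO replicate 3, and 14 without HET replicate 1. Of all genes 6.45% were called without HET replicate 1, against 1.62% with all arrays. Eci1 was called in 14 of 22 alternatives, Hadha in 12, Acaa2 in 10, Fabp3 in 9, Hadh in 8 and Pipox in 9 of 21. The fit with the replicate number as a block called 2 of the 38, Hadha and Eci1. No sign was seen that the numbers pair the samples: deviations from the genotype means correlated at -0.043 to 0.046 over the 9 same-number pairs and at -0.060 to 0.079 over the 18 others. With 3 arrays a genotype such correlations cannot exclude a pairing. For HET against WT the count was 0 to 6 with 1 array left out, 6 only without HET replicate 1, and 0 in the other alternatives. For KO against HET it was 0 in all. The median of -0.17 became -0.14 with quantile normalization or the median shift, -0.040 with probe sets averaged, -0.066 with the batch block, and -0.17 to -0.14 with 1 array left out. The 3 other genes of fatty acid metabolism became 1 with the median shift, 0 with the mean of probe sets, no trend or the batch block, 6 with array weights, 9 with only the 6 arrays compared, and 0 to 9 with 1 array left out. Of the 38 signs, 12 changed with the batch block and 8 with the mean of probe sets. Of 19 genes with more than 1 tested probe set, 12 had probe sets of opposite sign. The causes were not tested, except that leaving out an array or adding a block leaves fewer arrays or degrees of freedom. The Cpt1b minus Cpt1a comparison and its alternatives were not run.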
